A study of Homo sapiens with 8 samples.

Results

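The genes described here are 48 cytokines, chemokines, their receptors and NF-kappaB genes, chosen by name and found by matching the gene identifiers of the count table to GENCODE symbols. All 48 were among the 60659 genes of the table. The RNA came from the human neuroblastoma line SK-N-SH, was freed of ribosomal RNA and was sequenced in 8 libraries, 2 for each of 4 groups. Every group was given all-trans retinoic acid (ATRA, 10 µM for 24 h per the labels), which drives neuronal differentiation. The parental group was treated with doxycycline (Dox), and the ZMYND8 overexpression group carried FLAG-tagged ZMYND8 in a Dox-inducible lentiviral vector, was selected with G418 and was also treated with Dox. The KD control and ZMYND8 knockdown groups had no Dox, and per the methods shRNAs to ZMYND8 were delivered by lentivirus from a puromycin-selectable vector. The methods give that selection for SH-SY5Y and neural stem cells only, and for SK-N-SH the paper describes a knockout of ZMYND8. The labels call the 2 libraries of each condition biological replicates. The sources used here do not state that parental cells carried an empty vector, so vector, selection and ZMYND8 cannot be told apart in the overexpression comparison. ZMYND8 is a chromatin reader protein, and the study asked how it changes the transcription that follows ATRA.

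NF-kappaB is a family of transcription factors that inhibitor proteins such as the product of NFKBIA hold in the cytoplasm until receptors for IL-1 or TNF activate the IKK kinases. Freed dimers then switch on chemokines, cytokines and the inhibitors themselves, which closes a feedback loop. Cytokines of the IL-6 family act in parallel through the shared receptor subunit gp130, the product of IL6ST, and through JAK kinases and STAT factors. In the nervous system LIF and related ligands act on neurons of the sympathetic lineage, from which neuroblastoma arises, and CXCL12 with its receptor CXCR4 guides migrating neural crest and neuronal cells.

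The promoters of 6 chemokine genes of this family carry the same kappaB-type element, and they are shown because only 1 of these genes, CXCL8, was abundant in these cells. The sequences are those of RefSeq promoters (GRCh38.p14), which run from 250 bases before to 50 bases after each start site, and each line gives 41 bases, 5′ to 3′ on the strand of the gene, with GGAATTTCC in capitals.
CXCL1 (chr4:73869299-73869339, plus strand): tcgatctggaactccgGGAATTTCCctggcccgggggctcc
CXCL2 (chr4:74099248-74099288, minus strand): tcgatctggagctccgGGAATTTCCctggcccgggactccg
CXCL3 (chr4:74038743-74038783, minus strand): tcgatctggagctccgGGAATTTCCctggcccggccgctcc
CXCL5 (chr4:73998743-73998783, minus strand): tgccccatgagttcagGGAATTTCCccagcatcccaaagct
CXCL6 (chr4:73836573-73836613, plus strand): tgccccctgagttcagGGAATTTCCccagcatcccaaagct
CXCL8 (chr4:73740462-73740502, plus strand): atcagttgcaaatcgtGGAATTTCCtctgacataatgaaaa
The first capital lies between -77 bases (CXCL2) and -91 bases (CXCL8) from the start site. Counts per library ran from 127 to 19741 for CXCL8, from 12 to 74 for CXCL2 and from 0 to 12 for the other members of the group. The match in letters thus goes with very different levels of RNA. The whole CXCL8 promoter window (chr4:73740319-73740618, plus strand) also holds TGACTCA, an AP-1-type element, with its first base at -137, and both elements are in capitals.
CXCL8 promoter: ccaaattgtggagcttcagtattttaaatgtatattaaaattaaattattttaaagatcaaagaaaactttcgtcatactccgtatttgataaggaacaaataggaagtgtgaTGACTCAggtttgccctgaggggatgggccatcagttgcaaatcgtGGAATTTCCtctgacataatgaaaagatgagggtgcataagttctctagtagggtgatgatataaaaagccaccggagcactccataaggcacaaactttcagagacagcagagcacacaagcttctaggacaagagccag
Promoters of 36 of the 48 genes were in the RefSeq table (53 promoters), and those of 12, among them LIF, CCL2, CSF1, CX3CL1, ACKR3 and RELB, were not. The letters GGANTTTCC on either strand were in 13 of the 53 promoters (24.5%) against 577 of all 35116 (1.64%), and TGANTCA was in 8 (15.1%) against 2707 (7.71%). The promoter windows of IL1A overlap and hold the same TGANTCA sites, so these 8 promoters stand for fewer genes. These 2 motifs were chosen after the promoters had been looked at, and a match is a description and not a binding site. The other genes with the kappaB-type letters were IL6, IL32, NFKB1, NFKB2, NFKBIA, NFKBIZ and TNFAIP3, and none of the promoters of IL1B, IL1R1, IL7R, CXCL12, CXCR4, LIFR, OSMR or TNFRSF1A held them in this window.

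Counts on genes totalled between 38316523 and 56256979 per library. ZMYND8 itself had 3089 and 3612 parental counts against 220691 and 182849 with overexpression (log2 fold change 5.86), and 3128 and 3374 in the KD control libraries against 1641 and 1640 in the knockdown libraries (log2 fold change -0.94). Both changes were in the direction of the labels, and the knockdown was partial. Neuroblastoma lines hold adrenergic and mesenchymal cell states, and the summed level of 10 adrenergic marker genes was 335 and 332 CPM (counts scaled to library size by TMM) in the parental group and 1150 and 1200 after overexpression, with 6 of the 9 genes tested called higher. The 10 mesenchymal marker genes summed to 9750 and 10300 CPM in the parental group and to 3680 and 3460 after overexpression, with 6 called lower and 1 higher. In the knockdown experiment, adrenergic markers summed to 766 and 806 CPM in the KD controls and 598 and 668 in the knockdown, and mesenchymal markers to 5090 and 4930 CPM and 6580 and 6190. No adrenergic or mesenchymal marker was called there. By adjusted p alone, 5 of the 9 adrenergic markers tested were lower and 0 higher. Of the 10 mesenchymal markers, 6 were higher and 2 lower by that measure. The shares of all genes were 13.4% higher and 10.8% lower. Among adrenergic markers, TH, the first enzyme of catecholamine synthesis, had 0 to 5 counts per library. The 10 leukocyte markers summed to 0.886 to 3.82 CPM, with the leukocyte gene TYROBP at 0 in all 8 libraries and PTPRC, which encodes CD45, at 0 to 2 counts (59.8% of the exonic 31-base stretches of PTPRC also occur on alternate contigs). The 5 endothelial markers summed to 1.42 to 3.69 CPM, with KDR called higher and PECAM1 and VWF lower under overexpression and PECAM1 lower under knockdown. The 5 Schwann cell markers summed to 2.28 and 2.40 CPM in the parental group and 8.49 and 9.04 after overexpression, with S100B and ERBB3 called higher and SOX10 at 0 or 1 count per library, and none was called under knockdown. The part of these shifts in marker levels in the results that follow was not tested. In bulk RNA, fewer cells of a type and less RNA per cell cannot be told apart.

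Between the parental and overexpression groups a set of inflammatory ligands and receptors led by LIF, CXCL8 and CSF1 fell, and CXCL12 with its receptors CXCR4 and ACKR3 rose. A gene was called at an adjusted p below 0.05 (edgeR quasi-likelihood test with Benjamini-Hochberg adjustment over all genes), a log2 fold change of 1 or more in size and a mean above 20 normalized counts. Of the 48 genes, 35 had enough counts to be tested, and 13 were called lower (37.1%), against 6.84% of all 20835 genes tested. A further 5 (14.3%) were called higher, against 11.8% of all genes, and 4 of the genes with higher levels (IL33, CXCL14, CXCR4 and ACKR3) passed the filter on low counts only through the overexpression libraries. By adjusted p alone, 22 were lower and 9 higher, against 29.1% and 31.7% of all genes. The median log2 fold change of the 35 genes was -0.54, also with IL33 and ACKR3 at their lower bounds, and that of all genes was 0.03.

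Between KD control and knockdown few of the 48 genes passed the thresholds. Of 34 tested, 2 were called higher, IL1B and IL7R (5.88%, against 1.36% of all 19789 genes), and 0 were called lower by edgeR, against 0.596% of all genes. DESeq2 also called 0 lower, and 5 were lower at an unadjusted p below 0.05. By adjusted p alone 8 genes were higher and 5 lower, against 13.4% and 10.8% of all genes. With each library left out in turn, IL1B, IL7R, CCL2 and CXCL16 among the higher and CXCL8 and OSMR among the lower passed every time. The median log2 fold change was 0.14, and -0.01 over all genes. Of the 48 genes, 10 had too few counts for a test in either comparison, with at most 18 in any library. These were IL6, CXCL1, CXCL3, CXCL5, CXCL6, CCL5, CCL7, CCL20, CSF2 and CSF3.

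**Figure D1:**
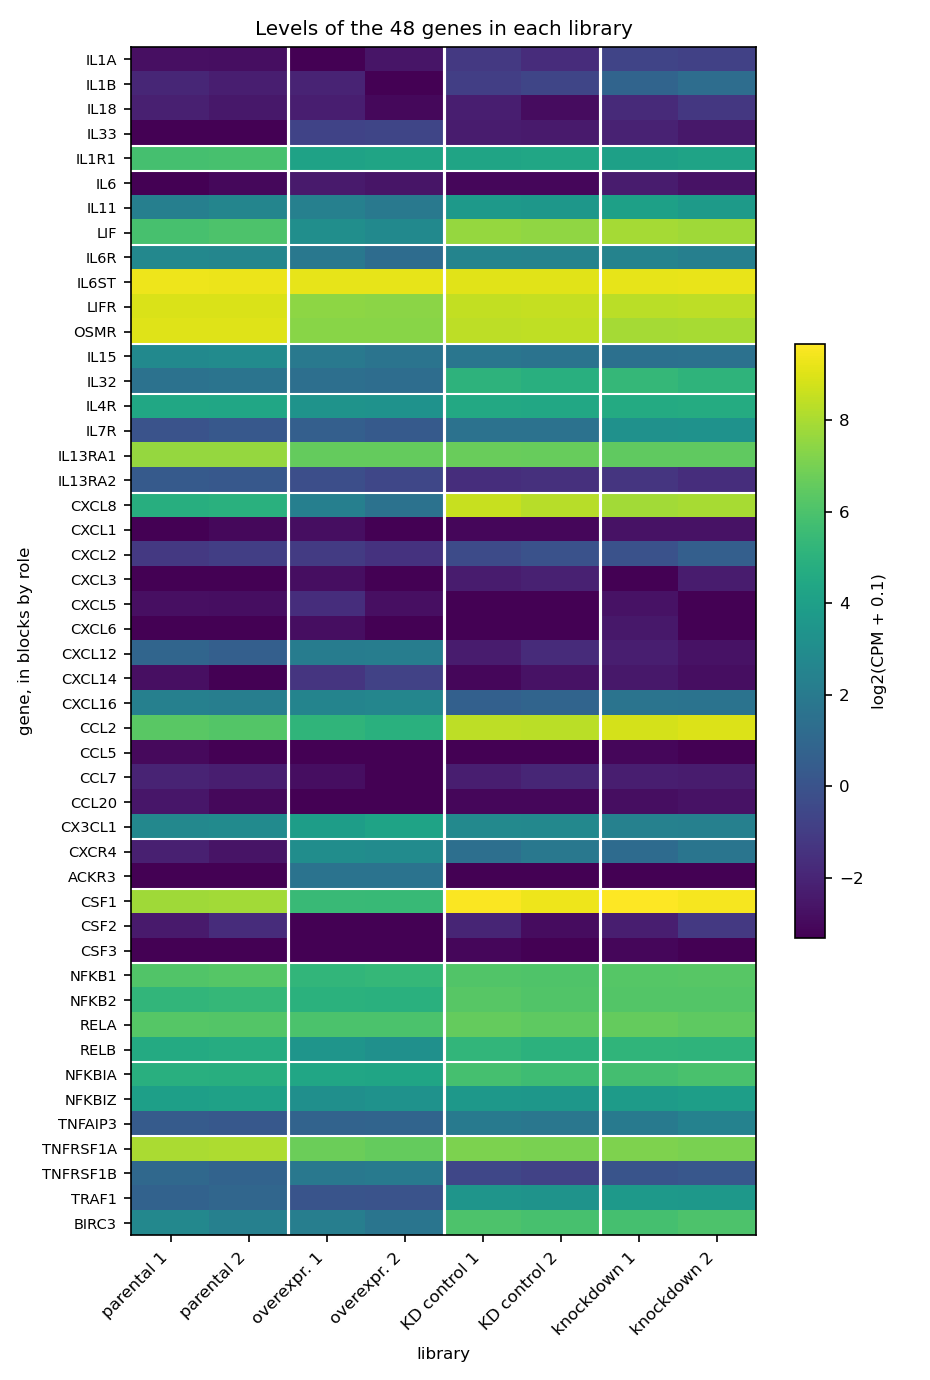
Heat map of the level of each of the 48 genes in each of the 8 libraries, as log2(CPM + 0.1), with genes in blocks by role and white vertical lines between groups. IL6ST, LIFR and OSMR are bright in all libraries, CXCL8, CCL2, CSF1, LIF, IL32, TRAF1 and BIRC3 are brighter in the KD control and knockdown libraries than in the others, and most CXCL and CCL genes are dark throughout.

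The IL-1 branch fell at its receptor. IL1R1 (ENSG00000115594, chromosome 2 from 102064544 to 102179874 on GRCh38), the signalling receptor for IL-1, had 2423 and 3054 parental counts and 969 and 840 counts after overexpression. The groups did not overlap, and the log2 fold change was -1.64 (SE 0.06, adjusted p = 3.5e-09). The KD control and knockdown libraries, at 1017, 1125, 862 and 968 counts, both lay near the level of the overexpression libraries (19.8, 17.5 and 18.5 mean CPM), and the change by knockdown missed the threshold (log2 fold change -0.18, adjusted p = 0.158). IL1B (ENSG00000125538, chromosome 2 from 112829751 to 112836816), which encodes the secreted ligand IL-1 beta, was nearly silent in the overexpression experiment, with 7 and 6 parental and 8 and 0 overexpression counts. With knockdown it rose from 23 and 31 to 89 and 126 counts (log2 fold change 2.04, SE 0.262, adjusted p = 0.000315), with no overlap. That rise came at low counts, since its mean of 67.9 normalized counts lay below the stricter minimum of 100. IL1A, the second IL-1 ligand, had 18 and 12 counts in the KD controls and 28 and 24 in the knockdown, and IL18 had 6, 2, 10 and 17, and neither change passed (adjusted p = 0.131 and 0.0771). IL18 was tested at all only through its knockdown libraries. IL33, a nuclear alarmin of the same family, was at 0 in the parental libraries, while those with overexpression had 28 and 24 counts, at least 8-fold more against a floor of 3 counts per library. Its adjusted p was 8.06e-05, but its mean of 12.8 normalized counts kept it from a call.

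In the gp130 branch the ligand gene LIF and the receptor genes LIFR, OSMR and IL6R fell while the shared subunit was nearly level. LIF (ENSG00000128342, chromosome 22 from 30240453 to 30246759), which signals through LIFR and gp130, had 2537 and 3423 parental counts and 454 and 311 after overexpression, a log2 fold change of -3.01 (SE 0.09, adjusted p = 9.14e-10), which with that of CXCL8 was the largest fall among the 48 genes. In the KD controls it stood at 10371 and 9948 counts and in the knockdown at 12358 and 11550, a small change past the adjusted p (log2 fold change 0.28, adjusted p = 0.0059). LIFR (ENSG00000113594, chromosome 5 from 38474668 to 38608354), its receptor, fell from 20725 and 24641 to 9253 and 7384 counts (log2 fold change -1.50, SE 0.048, adjusted p = 1.52e-09). OSMR (ENSG00000145623, chromosome 5 from 38845858 to 38945596), the receptor chain for oncostatin M and a neighbour of LIFR on chromosome 5, fell from 22189 and 26952 to 8717 and 7122 counts (log2 fold change -1.68, SE 0.047, adjusted p = 6.01e-10). Both receptors were also slightly lower by adjusted p after knockdown, LIFR at the edge of the threshold. LIFR had 18532 and 20415 KD control and 16455 and 17100 knockdown counts (log2 fold change -0.16, adjusted p = 0.044), and OSMR had 17053 and 18840 against 12463 and 12979 (log2 fold change -0.45, adjusted p = 0.000189). Neither reached a fold change of a call there.

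IL6R (ENSG00000160712, chromosome 1 from 154405193 to 154469450), which binds IL-6 itself, was the least abundant of the gp130 family receptors among the 48 genes. It had 283 and 312 parental and 192 and 101 overexpression counts (log2 fold change -1.09, SE 0.19, adjusted p = 0.000549). The overexpression libraries were unequal, and without replicate 2 of that group the log2 fold change was -0.82, short of a call. After knockdown it had 286 and 245 counts against 304 and 309 (log2 fold change -0.16, adjusted p = 0.428). IL6ST, the gp130 subunit itself, had 27540 and 32563 parental and 31102 and 25504 overexpression counts, and 28314 and 30275 KD control and 30199 and 31669 knockdown counts. Its log2 fold changes were -0.13 (adjusted p = 0.0291) and 0.13 (adjusted p = 0.103), and 16.4% of its exonic 31-base stretches occur elsewhere in the genome. Per exon length it was among the most abundant of the 48 genes, at 63.2 RPKM (reads scaled to exon length and library size) in the parental and 57.2 in the overexpression libraries, while OSMR went from 72.7 to 22.6 and LIFR from 39.7 to 14 RPKM. IL11, another gp130 ligand, had 204 and 302 parental and 268 and 165 overexpression counts, with overlapping groups (log2 fold change -0.27, adjusted p = 0.185). IL6 had 0 to 5 counts in every library.

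Receptors for IL-4, IL-13 and IL-7 took different directions. IL4R (ENSG00000077238, chromosome 16 from 27313668 to 27364778), which serves IL-4 and IL-13, fell from 910 and 1044 to 543 and 426 counts under overexpression (log2 fold change -1.06, SE 0.082, adjusted p = 1.2e-06) and had 1183 and 1193 KD control against 1267 and 1305 knockdown counts (log2 fold change 0.16, adjusted p = 0.114). IL13RA1 (ENSG00000131724, chromosome X from 118727133 to 118794535), its partner in the IL-13 receptor, fell from 8280 and 10026 to 5186 and 4181 counts (log2 fold change -1.01, SE 0.047, adjusted p = 2.1e-08), and in the knockdown experiment it had 5471 and 5602 against 4738 and 4751 (log2 fold change -0.17, adjusted p = 0.0234). Both lay close to the fold change of a call, and under upper quartile normalization their log2 fold changes were -0.99 and -0.94. Taking out trends of gene length and GC content left IL13RA1 at -0.91. Without replicate 2 of the overexpression group IL13RA1 also fell just short of the fold change of a call.

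IL7R (ENSG00000168685, chromosome 5 from 35852695 to 35879603), the receptor for IL-7 best known from lymphocytes, rose in the knockdown experiment from 150 and 157 to 498 and 500 counts (log2 fold change 1.75, SE 0.12, adjusted p = 5.38e-06). Leaving out any 1 of the 4 libraries gave a log2 fold change of 1.75 each time. In the overexpression experiment it had 38 and 57 parental and 76 and 51 overexpression counts, and the change missed the threshold (log2 fold change 0.37, adjusted p = 0.216). The 10 leukocyte markers summed to 2.42 and 2.10 CPM in the KD control and 3.53 and 3.82 in the knockdown libraries, and their part in this rise was not tested. Without CSF1R the other 9 summed to 1.81 and 1.43 CPM in the KD control and 1.57 and 1.71 in the knockdown libraries, so CSF1R carried the rise of the sum. IL15 (ENSG00000164136, chromosome 4 from 141636583 to 141733987), a cytokine that acts on lymphocytes, fell from 296 and 391 to 196 and 137 counts under overexpression (log2 fold change -1.09, SE 0.136, adjusted p = 4.96e-05). Its log2 fold change was -0.98, just short of a call, both without replicate 2 of the overexpression group and with the length and GC correction. Knockdown and its controls gave IL15 175, 165, 139 and 145 counts (adjusted p = 0.368). IL13RA2, a decoy receptor for IL-13, had 51 and 57 parental and 41 and 26 overexpression counts (log2 fold change -0.74, adjusted p = 0.029). The cytokine IL32 passed in neither comparison (log2 fold change -0.23 and 0.25, adjusted p = 0.266 and 0.0637), and 20.1% of its exonic 31-base stretches occur elsewhere in the genome.

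**Figure D2:**
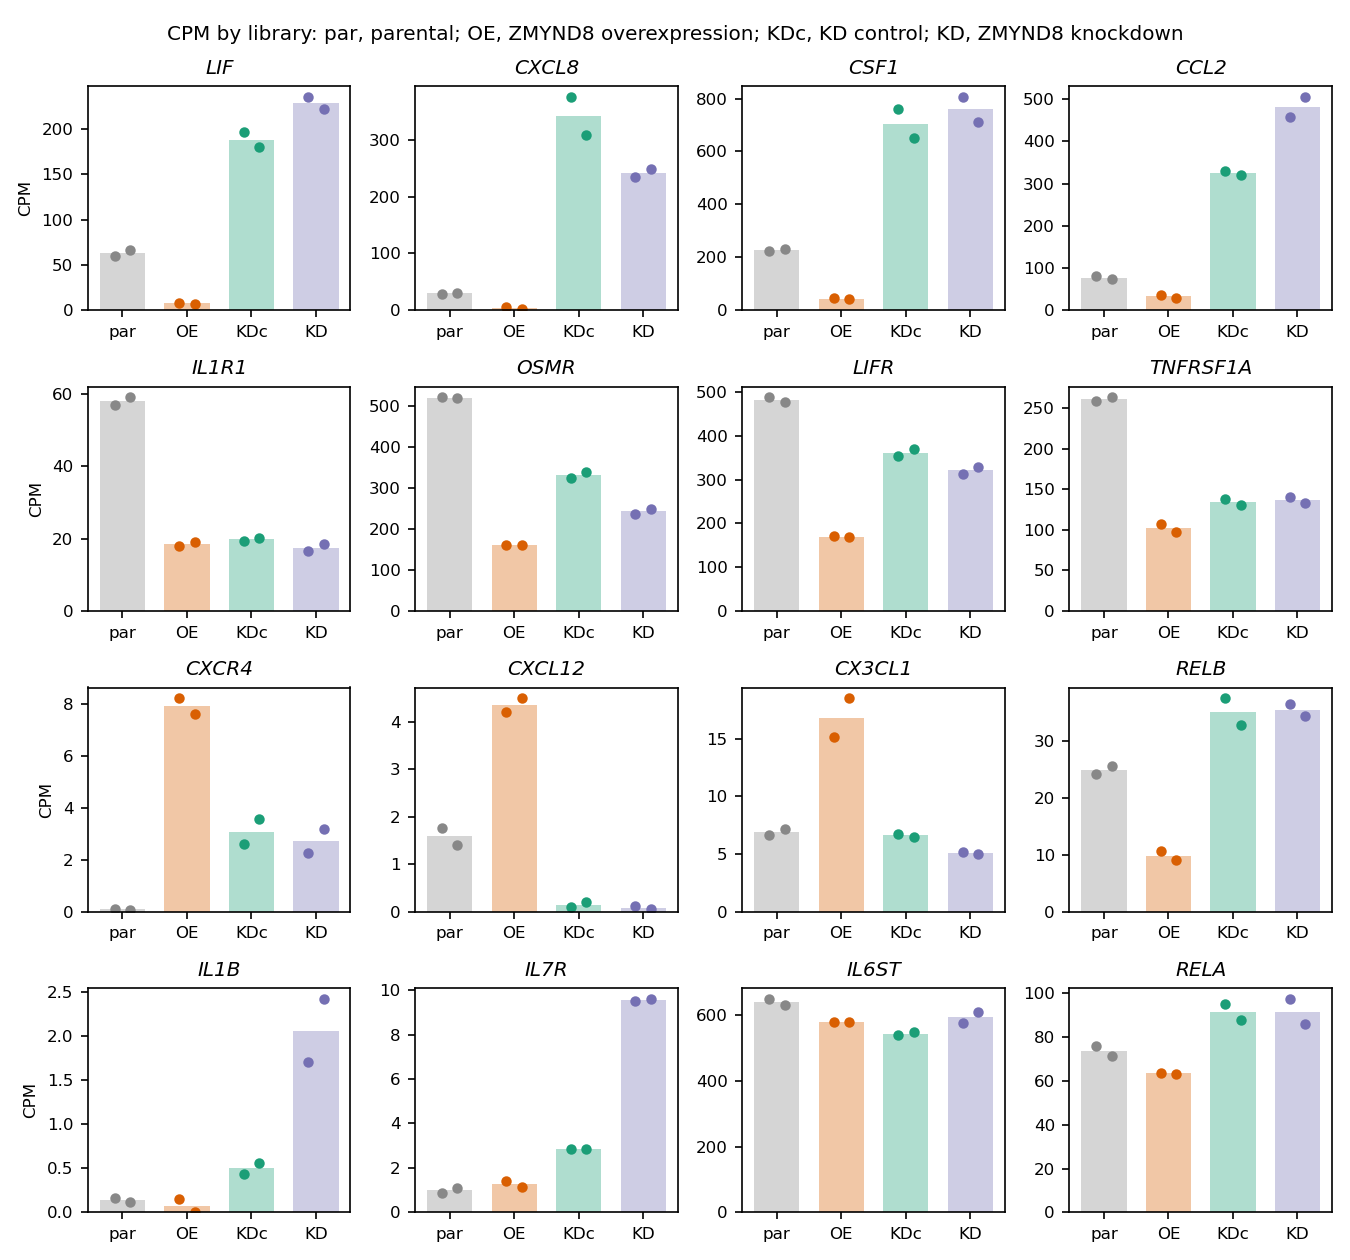
CPM of 16 genes in each library, with a point per library and a bar at the mean of the 2 libraries of a group, and axes that start at 0 and differ between genes. LIF, CXCL8, CSF1 and CCL2 are lower in overexpression than in parental libraries and several times higher in both groups of the knockdown experiment, while CXCR4, CXCL12 and CX3CL1 are highest in the overexpression libraries and IL1B and IL7R in the knockdown libraries.

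Among chemokines, the 2 abundant inflammatory ones fell under overexpression. CXCL8 (ENSG00000169429, chromosome 4 from 73740541 to 73743716), which encodes the neutrophil attractant IL-8, had 1204 and 1579 parental and 254 and 127 overexpression counts (log2 fold change -2.92, SE 0.161, adjusted p = 8.07e-08). Both groups of the knockdown experiment stood far higher, at 19741 and 17101 KD control and 12261 and 12926 knockdown counts, and CXCL8 was lower in the knockdown by adjusted p alone (log2 fold change -0.50, SE 0.079, adjusted p = 0.0011). Its level thus moved down in both comparisons. CCL2 (ENSG00000108691, chromosome 17 from 34255218 to 34257203), the monocyte attractant MCP-1, had 3407 and 3783 parental and 1901 and 1303 overexpression counts (log2 fold change -1.23, SE 0.081, adjusted p = 3.26e-07). Under knockdown CCL2 went the other way, from 17397 and 17742 to 23916 and 26378 counts (log2 fold change 0.57, SE 0.058, adjusted p = 7.79e-05), a rise too small for a call. With 242 RPKM, CCL2 was the most abundant of the 48 genes in the knockdown libraries.

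The receptors of CXCL12 rose with overexpression from almost no RNA. CXCR4 (ENSG00000121966, chromosome 2 from 136114349 to 136118149), the receptor for CXCL12, had 5 and 3 parental and 443 and 335 overexpression counts (log2 fold change 6.51, SE 0.254, adjusted p = 5.88e-09). Since its parental counts were so few, the ratio of the summed counts over effective library sizes was 93.6 with an exact 95% interval of 47.2 to 217, which covers counting error only. For CXCR4 the knockdown experiment gave 138 and 197 KD control and 118 and 166 knockdown counts, with overlapping groups (log2 fold change -0.19, adjusted p = 0.575). ACKR3 (ENSG00000144476, chromosome 2 from 236567787 to 236582354), a second, scavenging receptor for CXCL12, was at 0 in the parental libraries, while those with overexpression had 161 and 130 counts, at least 46-fold more against a floor of 3 counts per library (adjusted p = 2.16e-07). It also had 0 counts in all 4 libraries of the knockdown experiment, so the overexpression libraries were the only ones with any ACKR3 read. Its mean of 71.6 normalized counts lay below the stricter minimum of 100.

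CXCL12 (ENSG00000107562, chromosome 10 from 44370165 to 44386493), the ligand of both receptors, rose from 75 and 73 to 226 and 198 counts (log2 fold change 1.47, SE 0.175, adjusted p = 3.54e-05). It had 3 to 11 counts in the libraries of the knockdown experiment and was not tested there. CX3CL1 (ENSG00000006210, chromosome 16 from 57372477 to 57385044), fractalkine, a membrane-bound chemokine of neurons that binds microglia, had 283 and 372 parental and 813 and 813 overexpression counts (log2 fold change 1.28, SE 0.116, adjusted p = 3.98e-06). After knockdown it was lower by adjusted p alone, at 272 and 259 counts against 356 and 360 (log2 fold change -0.38, adjusted p = 0.0392). CXCL16 was higher by adjusted p alone in both comparisons, at 207 and 237 parental and 305 and 268 overexpression counts (log2 fold change 0.32, adjusted p = 0.0455) and 77 and 94 KD control and 162 and 158 knockdown counts (log2 fold change 0.95, adjusted p = 0.0025). The latter became a call without replicate 2 of the KD controls. CXCL14 had 2 and 0 parental and 16 and 22 overexpression counts, a ratio of 18.3 with an exact 95% interval of 4.72 to 156 (adjusted p = 0.00155), at a mean of 10.2 normalized counts, too low for a call. CXCL2 passed in neither comparison (adjusted p = 0.583 and 0.18), and 23.9% of its exonic 31-base stretches occur elsewhere in the genome. CCL5, at 0 or 1 count per library, lies wholly on alternate contigs as well, where reads can match more than 1 place and may not have been counted.

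CSF1 (ENSG00000184371, chromosome 1 from 109910242 to 109930992), which encodes the macrophage growth factor M-CSF, fell from 9555 and 11932 to 2389 and 1852 counts under overexpression (log2 fold change -2.39, SE 0.054, adjusted p = 1.3e-10). In the knockdown experiment its counts were 39956 and 36003 in the KD controls and 42271 and 37098 in the knockdown, with overlapping groups (log2 fold change 0.11, adjusted p = 0.366). The other colony-stimulating factors were at or near 0. CSF2, or GM-CSF, had 4 and 11 parental counts, 0 in both overexpression libraries and 2 to 18 in the knockdown experiment, and CSF3, or G-CSF, had at most 1 count per library.

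The 4 NF-kappaB subunit genes among the 48 fell unequally. RELB (ENSG00000104856, chromosome 19 from 45001449 to 45038198), the subunit of the noncanonical pathway, was the only 1 of the 4 to be called, with 1028 and 1329 parental and 575 and 399 overexpression counts (log2 fold change -1.32, SE 0.094, adjusted p = 5.92e-07). NFKB1, which encodes p105 and p50, had 3011 and 3864 parental and 1970 and 1780 overexpression counts (log2 fold change -0.91, SE 0.062, adjusted p = 4.11e-07), just under the fold change of a call. RELA, the main transactivating subunit, moved least, with 3231 and 3690 parental and 3424 and 2788 overexpression counts (log2 fold change -0.21, adjusted p = 0.00558), and NFKB2, which encodes p100 and p52, lay between (log2 fold change -0.34, adjusted p = 0.000641). In the knockdown experiment RELB, RELA and NFKB2 had log2 fold changes of 0.02, 0.01 and -0.03 (adjusted p = 0.911, 0.957 and 0.77), and their groups overlapped. NFKB1 was slightly higher there (log2 fold change 0.15, adjusted p = 0.0462). A further subunit gene, REL, is not among the 48 genes and did not fall. It had 477 and 543 parental and 683 and 515 overexpression counts (log2 fold change 0.18, adjusted p = 0.13). With knockdown REL rose from 836 and 931 to 1361 and 1268 counts (log2 fold change 0.62, adjusted p = 0.000251). Of its exonic bases, 43.3% overlap another gene on the same strand.

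None of NFKBIA, NFKBIZ and TNFAIP3 was called in either comparison. NFKBIA, the inhibitor I-kappa-B alpha and itself a target of NF-kappaB, had 1237 and 1445 parental and 1100 and 856 overexpression counts (log2 fold change -0.51, adjusted p = 7.79e-05). NFKBIZ, a nuclear I-kappa-B protein, had 666 and 894 against 465 and 423 (log2 fold change -0.85, adjusted p = 2.73e-05). TNFAIP3, which encodes the ubiquitin-editing enzyme A20, went the other way at low counts, 52 and 57 against 89 and 76 (log2 fold change 0.55, adjusted p = 0.0436). With knockdown NFKBIZ was higher by adjusted p alone (log2 fold change 0.30, adjusted p = 0.0324), and NFKBIA and TNFAIP3 missed the threshold (adjusted p = 0.298 and 0.171).

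The 2 TNF receptors went in opposite directions under overexpression. TNFRSF1A (ENSG00000067182, chromosome 12 from 6328757 to 6342114), the widely expressed receptor that carries a death domain, fell from 11019 and 13576 to 5742 and 4294 counts (log2 fold change -1.34, SE 0.056, adjusted p = 9.31e-09). TNFRSF1B (ENSG00000028137, chromosome 1 from 12166991 to 12209228), the receptor that lacks one, had 84 and 87 parental and 191 and 171 overexpression counts (log2 fold change 1.03, SE 0.173, adjusted p = 0.000421). The call on TNFRSF1B was at the edge. Its log2 fold change was 0.92 without replicate 2 of the parental group, 0.97 without replicate 2 of the overexpression group and 0.74 with the length and GC correction. Per length TNFRSF1A remained far more abundant, at 25.5 against 0.984 RPKM in the overexpression libraries. In the knockdown experiment TNFRSF1A had 7243 and 7261 KD control and 7318 and 6919 knockdown counts (log2 fold change 0.02, adjusted p = 0.809), with overlapping groups. TNFRSF1B there had 30 and 27 against 49 and 54 (log2 fold change 0.90, adjusted p = 0.0268), at a mean of 40.2 normalized counts. With each library left out its log2 fold change ran from 0.79 to 1.01, and it was not among the genes that passed every time. The adaptor TRAF1 had log2 fold changes of -0.90 and 0.24 (adjusted p = 0.00504 and 0.0826), and BIRC3, an inhibitor of apoptosis, of -0.54 and -0.01 (adjusted p = 0.0352 and 0.945). TNF itself had 0 counts in all 8 libraries, but 100% of its exonic 31-base stretches also occur on alternate contigs, so reads from it may not have been counted.

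**Figure D3:**
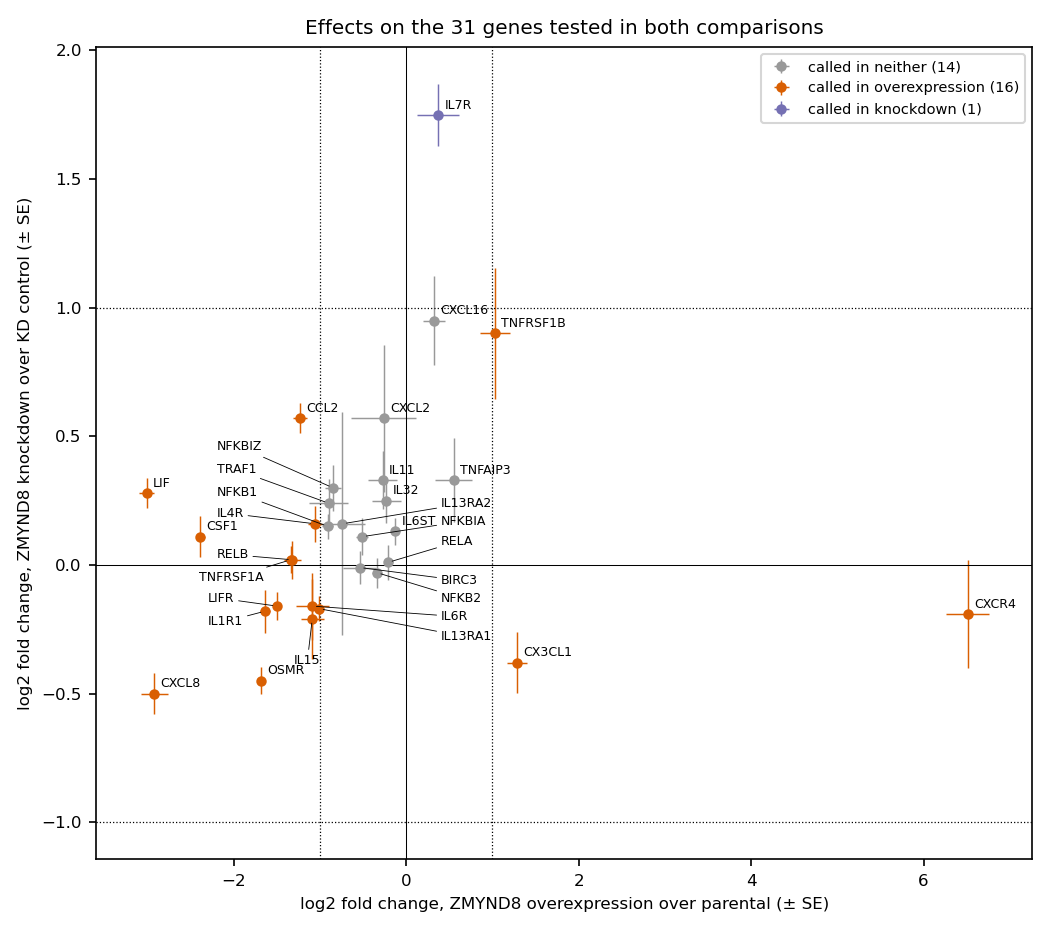
Log2 fold change by ZMYND8 overexpression (x axis) against that by knockdown (y axis) for the 31 genes tested in both comparisons, with standard errors as bars and dotted lines at the fold change of a call. Most called genes lie to the left within a narrow band around 0 on the y axis, CXCR4 lies alone at the right, and IL7R alone at the top.

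Whether the 2 manipulations had different effects was tested in 1 fit of all 8 libraries. Of 38 genes tested, 15 were called lower (39.5%, against 7.66% of all 22619 genes) and 3 higher (7.89%, against 11.1%). The higher ones were CXCR4, CXCL12 and CX3CL1, and CXCL12 was no longer called without KD control replicate 2 (log2 difference 1.59, adjusted p = 0.131). Among the lower ones were 6 ligands and receptors of the IL-1 and gp130 branches and of IL-4 (IL1B, IL1R1, LIF, LIFR, OSMR and IL4R), IL7R, CXCL8, CCL2, CSF1, the NF-kappaB genes NFKB1, RELB and NFKBIZ, and TNFRSF1A with TRAF1. CCL2 and LIF moved in opposite directions by adjusted p, lower with overexpression and higher with knockdown, and so did NFKB1 and NFKBIZ, whereas CX3CL1 was higher with overexpression and lower with knockdown. CXCL8, OSMR and LIFR were lower in both. Of these directions under knockdown, those of CCL2, CXCL8 and OSMR passed with each of the 4 libraries left out, that of LIF in 3 of the 4 fits, that of NFKBIZ in 1, and those of NFKB1, CX3CL1 and LIFR in 0. By adjusted p, IL13RA1 was also lower in both comparisons (0.0234 under knockdown). CXCL16 and TNFRSF1B were higher in both (0.0025 and 0.0268 under knockdown). The difference of effects was not called for these genes. By adjusted p alone it passed for IL13RA1 (log2 difference -0.85, adjusted p = 5.87e-08) and CXCL16 (-0.64, adjusted p = 0.0207). For TNFRSF1B it did not pass (0.13, adjusted p = 0.773). IL1B and IL7R were called higher in the knockdown. Under overexpression IL7R was not called, and IL1B had too few counts to be tested. The difference for IL1B rested on 0 to 8 counts in the overexpression experiment, ran from -7.86 to -1.93 with each library left out and was no longer called without parental replicate 1 (adjusted p = 0.0773). ACKR3 was not called (adjusted p = 1.0), in a fit where its other 6 libraries held 0 counts, and DESeq2 did call it.

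The controls of the 2 experiments differed widely, as described here with no test, since experiment and group cannot be told apart between them. Mean CPM of CXCL8 was 29.4 in the parental and 342 in the KD control libraries, 5.83 and 61.4 for BIRC3, 2.96 and 31 for IL32, and 1.72 and 10.3 for TRAF1. CCL2 (76.7 and 326 CPM), CSF1 (228 and 705) and LIF (63 and 188) were likewise higher in the KD controls. The levels of IL1R1 (58 and 19.8 CPM), TNFRSF1A (261 and 134) and CXCL12 (1.59 and 0.147) were lower in the KD controls, and that of CXCR4 (0.0878 and 3.09) was higher. In log2 CPM, CXCL8 differed between the controls by 3.54, more than it moved in either comparison, and BIRC3 by 3.40 although it was called in neither.

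Another 4 lists of genes of the same pathways, chosen with earlier results of these data known, are described by their counts, to be read against the shares and medians of all genes given above (median log2 fold change 0.03 under overexpression and -0.01 under knockdown). Among 38 genes of NF-kappaB signalling, all were tested. They were receptors, adaptors, kinases, ubiquitin enzymes, the subunit gene REL and the I-kappa-B family genes NFKBIB, NFKBIE, NFKBID and BCL3. By adjusted p alone under overexpression, 26 were lower and 3 higher (NFKBIE, NFKBID and TRAF6), against 29.1% and 31.7% of all genes. Of the 38 genes, 4 were called lower and 0 higher there, against 6.84% and 11.8% of all genes. The median log2 fold change was -0.32. IRAK2, a kinase downstream of the IL-1 receptor, had 920 and 1133 parental and 251 and 143 overexpression counts (log2 fold change -2.44, SE 0.138, adjusted p = 1.02e-07). IL1RAP, the accessory chain that pairs with IL1R1, fell from 816 and 1005 to 366 and 239 (log2 fold change -1.64, SE 0.112, adjusted p = 4.3e-07), and TLR3, the sensor of double-stranded RNA, from 709 and 723 to 319 and 260 (log2 fold change -1.36, SE 0.112, adjusted p = 1.88e-06). The fourth was the IKK kinase gene IKBKB (log2 fold change -1.23, adjusted p = 1.52e-08). With IL1R1, the receptor, its accessory chain and a proximal kinase of the IL-1 branch were therefore all lower in the overexpression libraries. Knockdown gave 0 calls in this list by edgeR in either direction, with 9 genes higher and 6 lower by adjusted p alone, and IRAK2 and IL1RAP were among the higher ones (log2 fold change 0.67 and 0.73, adjusted p = 0.000149 and 0.00072).

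Of 27 known target genes of NF-kappaB and inflammation, 1 was not analysed here, and of the other 26, 23 were tested under overexpression. Of these, 12 were called lower and 2 higher, against 6.84% and 11.8% of all genes, and the median log2 fold change was -1.04. The matrix protease gene MMP3 fell from 2088 and 2300 to 366 and 251 counts (log2 fold change -2.89, SE 0.092, adjusted p = 1.49e-09). PLAU, which encodes urokinase, fell from 34132 and 45857 to 8321 and 5294 (log2 fold change -2.61, SE 0.104, adjusted p = 6.91e-09), and part of its exonic bases lie opposite another gene. CD44, the hyaluronan receptor, which is also 1 of the 10 mesenchymal markers, fell from 23393 and 27073 to 5535 and 3502 (log2 fold change -2.55, SE 0.099, adjusted p = 5.88e-09). The 2 higher genes, named after their values were seen, were MMP9 and TNFAIP6 (log2 fold change 2.53 and 2.55). ICAM1, an adhesion molecule and standard NF-kappaB target, was abundant and moved little (log2 fold change -0.34 and -0.17). Under knockdown, PTGS2, which encodes COX-2, fell from 224 and 200 to 87 and 94 counts (log2 fold change -1.18, SE 0.168, adjusted p = 0.000591), and it fell under overexpression as well (log2 fold change -1.75, adjusted p = 0.000107). The other calls under knockdown were at low counts, SELE lower (-1.38) and TNFSF10 higher (1.11), and these were also named after their values were seen. Without KD control replicate 1 SELE was no longer called (adjusted p = 0.0873), and TNFSF10 was called in 1 of the 4 fits with a library left out.

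Among 25 genes of gp130 and JAK-STAT signalling, 24 were tested under overexpression, with 3 called higher, 1 lower and a median log2 fold change of -0.14. These calls were near the shares of all genes (11.8% higher and 6.84% lower). CNTFR, the receptor for ciliary neurotrophic factor, which signals with LIFR and gp130, rose from 78 and 91 to 1054 and 840 counts (log2 fold change 3.44, SE 0.111, adjusted p = 1.55e-09). Within the receptor family that shares gp130, LIFR and OSMR thus fell while CNTFR rose. The repressor gene BCL6 fell from 1343 and 1602 to 587 and 461 (log2 fold change -1.54, SE 0.072, adjusted p = 2.2e-08), while the STAT5 target CISH was called higher (log2 fold change 1.26). STAT3 and its target SOCS3, named for their role, had log2 fold changes of 0.21 and 0.31 under overexpression (adjusted p = 0.00431 and 0.000395). Knockdown gave 0 calls in this list by edgeR, with 5 genes higher and 3 lower by adjusted p alone.

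Of 70 other ligands and receptors, 32 were tested under overexpression, 4 called higher and 6 lower, against 11.8% and 6.84% of all genes. ACKR1, an atypical receptor that binds many inflammatory chemokines, had 0 and 3 parental and 308 and 365 overexpression counts (log2 fold change 7.67, SE 0.44, adjusted p = 1.1e-07), a ratio of 216 with an exact 95% interval of 73.5 to 1050. It passed the filter on low counts only through the overexpression libraries, and its log2 fold change was 6.84 without parental replicate 1 and 11.35 without parental replicate 2, which leaves a lone parental library at 0. It had 35 to 50 counts in the libraries of the knockdown experiment. IL17RD rose from 2825 and 3540 to 10191 and 9650 (log2 fold change 1.61, SE 0.069, adjusted p = 1.16e-08), and the TNF family ligand gene TNFSF9 from 171 and 269 to 770 and 422 (log2 fold change 1.38, SE 0.19, adjusted p = 0.000105). Under knockdown 28 were tested, 1 called lower and 3 higher, against 0.596% and 1.36% of all genes. The lower one was IFNGR2, a chain of the interferon gamma receptor, with 573 and 582 KD control and 224 and 167 knockdown counts (log2 fold change -1.51, SE 0.142, adjusted p = 3.98e-05), and 91.9% of its exonic 31-base stretches also occur on alternate contigs, so its counts are uncertain. The higher ones, named after their values were seen, were CSF1R, the receptor for CSF1, IL21R and IL15RA. CSF1R had 32 and 37 KD control and 103 and 110 knockdown counts (log2 fold change 1.67, adjusted p = 0.000288). Under overexpression it had 56 and 47 against 12 and 6 (log2 fold change -2.57, adjusted p = 0.000151), so that ligand and receptor were both lower there.

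**Figure D4:**
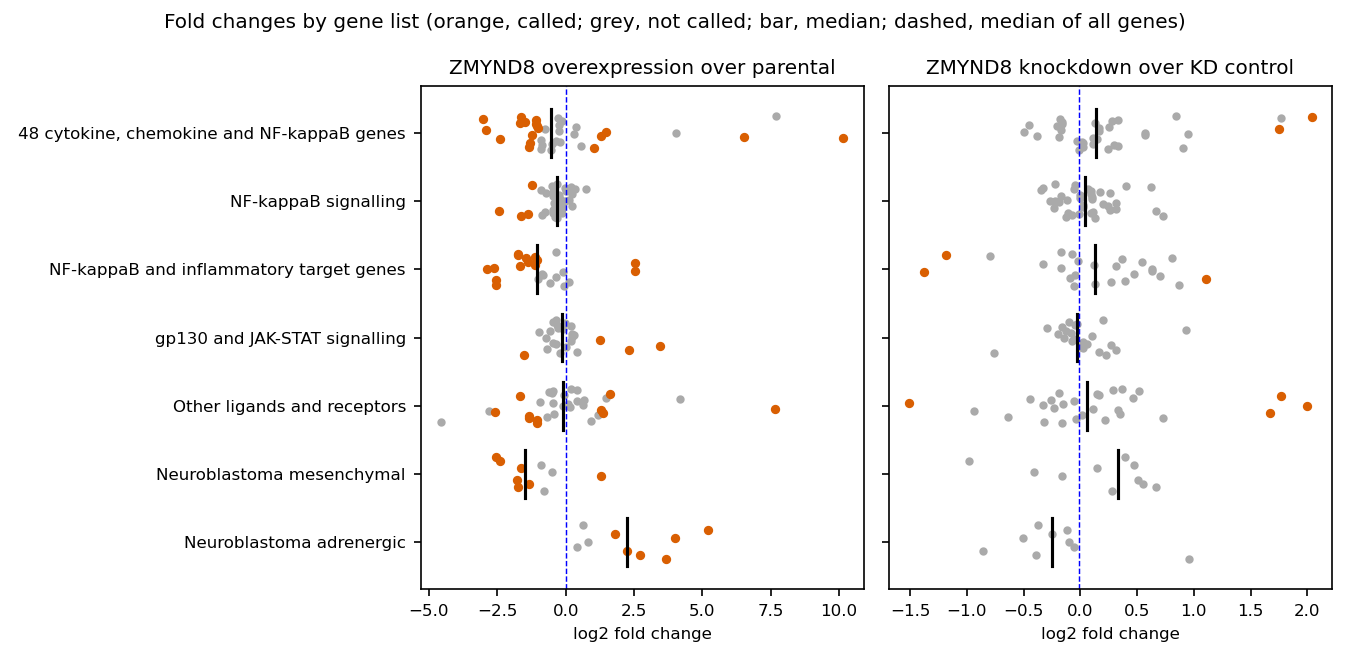
Log2 fold changes of the genes tested in each list under overexpression (left) and knockdown (right), with called genes in orange, the median of the list as a black bar and the median of all genes as a dashed line. Under overexpression the inflammatory target genes and mesenchymal markers lie mostly to the left and the adrenergic markers to the right, and under knockdown few genes are called. The points of genes at 0 in a group, such as ACKR3, are fitted values that depend on the prior count.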

How the data were processed

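RNA of 8 SK-N-SH libraries was analysed, with each sample's group taken from its title and treatment label. The authors deposited counts of reads per gene, in whole numbers and not normalized. Their methods name Trim_Galore for trimming and a quality filter, Hisat2 with GRCh38 for alignment and featureCounts with GENCODE annotation for counting. The strand setting and the treatment of reads with several matches are not given in the sources used here, so genes that overlap or share sequence are uncertain. Of the 60662 lines, 3 belonged to 1 gene split over several lines and were left out, which leaves 60659 genes, 60418 of them with a symbol in GENCODE release 44. Coordinates are those of the count table, on GRCh38.

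The quasi-likelihood test of edgeR (version 4.0.16, with limma 3.58.1 and R 4.3.3) was run two-sided after filterByExpr and TMM normalization, each comparison on its own 4 libraries and the difference of effects on all 8. Calls needed an adjusted p (Benjamini-Hochberg, over all genes) below 0.05, a log2 fold change of 1 or more in size and a mean above 20 normalized counts. CPM and RPKM use TMM over all 8 libraries, RPKM with the exon lengths in the table. Folds against groups at 0 use a floor of 3 counts per library. With 2 replicates per group, no group was tested for outlying samples. No pair of replicates agreed within counting noise (chi-square per degree of freedom 5.52 to 7.97).

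All 48 genes are accounted for. Counts, fold changes, standard errors and adjusted p are printed for the 20 genes called in either comparison, and the 3 called genes with the largest change and a mean above 100 are named from each pathway list, except 1 that is not reported here. The members, lists, motifs and tests were chosen with earlier results of these data known. The alternatives tried were DESeq2 1.42.0, RLE or upper quartile normalization, no filter on low counts, all 8 libraries in 1 fit, a mean above 100, the replicate number as a block, a loess correction (span 0.5) for length and GC content of genes, both together, and each library left out. The main edgeR fit, DESeq2 and the length and GC correction were first tested on simulated data in which 200 genes had been changed. The correction was not simulated for the difference of effects, and the other alternatives were not simulated.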

Additional observations from a re-analysis of the deposited data

Results flagged for a closer look

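Of the 48 genes, 38 were tested in the fit of all 8 libraries. For 18 the effect of overexpression differed from that of knockdown, with the difference itself past the thresholds of a call (edgeR, adjusted over all genes). Of the genes tested, 39.5% were called lower and 7.89% higher, against 7.66% and 11.1% of all genes. Each value is the log2 fold change by overexpression minus that by knockdown. The lower ones in the gp130 branch were LIF (-3.29, adjusted p = 6.74e-12), LIFR (-1.34) and OSMR (-1.24). IL1R1 differed by -1.47 and IL4R by -1.23. IL1B (-2.79, adjusted p = 0.0165) and IL7R (-1.38) were called higher in the knockdown, and the difference for IL1B ran from -7.86 to -1.93 with each library left out and was no longer called without parental replicate 1 (adjusted p = 0.0773). Among chemokines and growth factors CXCL8 differed by -2.42, CCL2 by -1.80 and CSF1 by -2.50. The NF-kappaB genes NFKB1, RELB and NFKBIZ differed by -1.07, -1.35 and -1.16, and TNFRSF1A and TRAF1 by -1.37 and -1.15. The higher ones were CXCR4 (6.69), CXCL12 (2.22) and CX3CL1 (1.66), and CXCL12 was no longer called without KD control replicate 2 (1.59, adjusted p = 0.131). Controls, vectors and Dox differ between the 2 experiments, and the cultures of the line may differ as well. The ZMYND8 change also differed in size (log2 fold change 5.86 with overexpression and -0.94 with knockdown). None of these can be told apart from the direction of the ZMYND8 change.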

How the results depend on the processing

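With 2 libraries per group, leaving out 1 leaves a group with a lone library, which is assumed to vary like the others. No called gene changed direction under any alternative. Of 216 alternatives to the 18 calls under overexpression 203 kept the call, and of 24 to the 2 under knockdown 24 did. At a mean normalized count above 100, the knockdown calls went from 2 to 1, since IL1B lay below it, and ACKR3 was lost under overexpression. Upper quartile normalization lost IL4R and IL13RA1, and the length and GC correction lost TNFRSF1B, IL15 and IL13RA1 and gained TRAF1, with the cause not tested. Leaving out each library in turn gave 10 to 13 lower and 4 to 5 higher calls under overexpression and 2 to 3 higher calls under knockdown. Without replicate 2 of the overexpression group, TNFRSF1B, IL6R, IL15 and IL13RA1 were lost, and without parental replicate 2, TNFRSF1B. Counts by adjusted p alone under knockdown were less stable, with 4 to 9 genes higher, the 4 without KD control replicate 2, and 2 lower in place of 5 whichever library was left out. In the difference of effects IL1B was lost without parental replicate 1 (adjusted p = 0.0773), CXCL12 without KD control replicate 2 (adjusted p = 0.131) and NFKB1 without overexpression replicate 1. The knockdown call on TNFSF10 was lost without the filter on low counts, with all 8 libraries in 1 fit and without either KD control or knockdown replicate 2, and DESeq2 gave it no adjusted p. The median of all genes under overexpression was 0.03, 0.11 with upper quartile normalization and 0.14 without the filter. The replicate number as a block kept all 18 calls under overexpression, 2 under knockdown and 18 in the difference, and gained none. The deviations of same-numbered libraries correlated at 0.00877 and -0.00728, so the numbers do not pair the samples.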
